A study of Mus musculus with 16 samples.

Results

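The genes described here were the zinc finger genes with a symbol from *Zfp900* to *Zfp999*. They were chosen by symbol from the table of mammary tumors of the *Resf1* gene trap model. The rule uses no measured value, but earlier results of these data were known when it was set. Such a symbol was held by 53 of the 23609 genes measured, and 52 of these were among the 21034 genes that had a mean value of at least 10 and were tested. The name table holds 64 such symbols, and the other 11 (*Zfp936*, *Zfp957*, *Zfp969*, *Zfp978*, *Zfp980*, *Zfp981*, *Zfp985*, *Zfp986*, *Zfp988*, *Zfp989* and *Zfp990*) were not analysed here. The study sequenced total RNA of primary mammary tumors from 2 groups of littermates. All animals carried MMTV-PyMT, the polyoma middle T antigen driven in mammary epithelium by a mouse mammary tumor virus promoter, from an FVB parent strain. The wildtype animals had intact *Resf1*. The gene trap animals were *Resf1* +/- and carried a B6(129S) gene trap allele from a strain derived from C57BL/6. In this allele a lentiviral vector inserted in exon 1 interrupts the transcript and makes an EGFP and cre fusion protein in its place. Both groups were F1 offspring of the cross of the gene trap strain with FVB/MMTV-PyMT, so the 2 parental backgrounds were mixed in both. Tumors were taken at the humane endpoint, so age and tumor size were not matched by design, and 1 allele of *Resf1* was intact in the germline of gene trap animals. Values came from 5 wildtype and 5 gene trap tumors, and the strain origin of the zinc finger gene groups in each tumor was not analysed here.

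Most proteins of this family are KRAB zinc finger proteins. An array of C2H2 zinc fingers, each folded around a zinc ion, reads a DNA sequence. The KRAB domain binds TRIM28, which brings in the histone H3 lysine 9 methyltransferase SETDB1 and heterochromatin proteins, and many KRAB zinc finger proteins thereby silence transposable elements in early development and in adult tissues. The genes lie in large arrays that arose by repeated duplication and that differ between inbred mouse strains. RESF1 is known to act with SETDB1 in the silencing of endogenous retroviruses in embryonic stem cells, which gives the comparison of these genes between the groups its interest. In breast cancer cell lines with *Resf1* knocked down, the study itself saw no change of the endogenous elements it measured. Global trimethylation of histone H3 lysine 9 was also unchanged there.

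*Resf1*, the trapped gene, was examined first. Its normalized value was 4215, 4397, 3881, 4487 and 3517 in wildtype replicates 1 to 5, and 4029, 3066, 3686, 3392 and 3409 in gene trap replicates 1 to 5. Gene trap tumors were lower on average but the groups overlapped (log2 fold change -0.22, standard error 0.09, limma p = 0.0313 unadjusted and 0.9997 adjusted over all genes, exact two-sided permutation p = 0.0635). Without gene trap replicate 2 the log2 fold change was -0.17 and the unadjusted p in limma was no longer under 0.05. The study itself reported less *Resf1* mRNA in gene trap than in wildtype tumors by qRT-PCR, with 5 tumors per group. The deposited values had been normalized between tumors, so the depth of each tumor is unknown. The values of a tumor summed to between 31995078 and 42153593, the highest in gene trap replicate 2, a tumor that stands apart over the whole table. All 6 luminal markers examined, which include *Epcam*, *Krt8* and *Krt18*, were expressed, with a sum of 77496 to 102309 in wildtype and 80754 to 108491 in gene trap tumors. Fibroblast, endothelial, macrophage and other non-epithelial markers were present in every tumor, and B cell markers were not analysed here. The summed myoepithelial markers were lower in gene trap tumors (4582 to 6099) than in wildtype tumors (5854 to 8265), with overlap and with 1 of 5 markers, *Myh11*, at an unadjusted p under 0.05 in limma, and their part in the members' values was not tested. Each value thus mixes several cell types, and fewer cells of a type cannot be told apart from less RNA per cell in these bulk samples.

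The 53 genes lay on 11 chromosomes, and 35 of them had another member within 1 Mb. The largest group, on chromosome 17, had 10 members (*Zfp948*, *Zfp983*, *Zfp995*, *Zfp942*, *Zfp943*, *Zfp947*, *Zfp994*, *Zfp944*, *Zfp946* and *Zfp945*, in this order). The chromosome 2 group had 9 members (*Zfp968*, *Zfp965*, *Zfp966*, *Zfp967*, *Zfp973*, *Zfp970*, *Zfp972*, *Zfp971* and *Zfp931*). The chromosome 4 group had 8 members (*Zfp987*, *Zfp992*, *Zfp993*, *Zfp991*, *Zfp982*, *Zfp979*, *Zfp984* and *Zfp933*). Groups of 3 lay on chromosome 7 (*Zfp977*, *Zfp976* and *Zfp975*) and on chromosome 8 (*Zfp930*, *Zfp964* and *Zfp963*), *Zfp934* and *Zfp935* were neighbours on chromosome 13, and 18 members had no neighbouring member. Of the 52 members with an annotated coding sequence, 48 (92.3%) held the KRAB A box pattern searched, against 112 of 289 (38.8%) other numbered *Zfp* genes. The pattern, glutamate and tryptophan followed at set distances by leucine and tyrosine and by valine and methionine, misses divergent boxes, and *Zfp953*, *Zfp956*, *Zfp972* and *Zfp974* did not hold it. The number of C2H2 motifs in the longest annotated protein ran from 0 to 21 with a median of 11. *Zfp974* had the most motifs, and *Zfp935* and *Zfp972*, whose proteins are 150 and 139 residues long, had none.

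Many members are close copies of each other or of unnamed neighbours, so that reads could be split between them in counting. The share of each gene's 50-base windows that also occurs in a transcript of another gene was used to describe this. The share was 0.0% for *Zfp949* and *Zfp961*, under 5% for 18 members and at least 80% for 10 members, with a median of 16.7%. In the chromosome 2 group it was complete for *Zfp965*, *Zfp967* and *Zfp968* and had a median of 88.4%. The median was 48.8% in the chromosome 4 group, 9.4% in the chromosome 17 group and 2.3% among members with no neighbour. Values of members with large shares are therefore uncertain as measures of a single gene, and their shares are given where they are described.

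The start regions of the chromosome 2 and chromosome 17 groups are shown because the groups contrast in how alike these regions are. Promoters, here 250 bases before to 50 bases after the annotated start, were found in RefSeq (GRCm38.p6) for 48 of the 53 members, and not for *Zfp930*, *Zfp934*, *Zfp960*, *Zfp991* and *Zfp992*. Identity was counted over all 300 bases of a promoter, so that a shift between 2 annotated starts counted as difference. Over the 36 pairs of the chromosome 2 group the identity of aligned promoters was at least 68.3% with a median of 87.0%, and *Zfp966* and *Zfp967* had the same promoter. Over the 45 pairs of the chromosome 17 group it was 47.7% to 91.3% with a median of 54.7%. Among the chromosome 2 group, *Zfp970* was 97.7% identical to *Zfp966* and 94.7% identical to *Zfp971*. In the chromosome 17 group *Zfp942* and *Zfp944* were the closest pair by this measure, at 91.3%. Their printed stretches start at different points of a nearly identical sequence, so the figure understates how alike they are. The stretches of *Zfp966* and *Zfp970* are shifted by fewer bases, so the percentages do not rank these pairs by divergence. In the sequences below, written 5′ to 3′ on the gene's strand, capitals mark CCAAT and its reverse complement ATTGG, the 2 orientations of the CCAAT box, a common promoter element.
Zfp966 (chr2:175931051-175931350, minus strand): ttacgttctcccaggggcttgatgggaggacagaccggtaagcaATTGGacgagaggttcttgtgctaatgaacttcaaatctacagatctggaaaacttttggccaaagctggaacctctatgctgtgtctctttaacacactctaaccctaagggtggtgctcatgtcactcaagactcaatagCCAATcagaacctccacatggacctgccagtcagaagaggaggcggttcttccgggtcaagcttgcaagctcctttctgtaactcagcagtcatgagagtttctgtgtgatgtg
Zfp970 (chr2:177464492-177464791, plus strand): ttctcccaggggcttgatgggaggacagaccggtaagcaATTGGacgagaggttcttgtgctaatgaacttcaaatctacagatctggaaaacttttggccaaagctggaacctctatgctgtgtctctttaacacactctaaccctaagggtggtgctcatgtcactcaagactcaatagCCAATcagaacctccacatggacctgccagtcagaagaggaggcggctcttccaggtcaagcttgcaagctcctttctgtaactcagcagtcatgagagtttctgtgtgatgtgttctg
Zfp971 (chr2:178023034-178023333, plus strand): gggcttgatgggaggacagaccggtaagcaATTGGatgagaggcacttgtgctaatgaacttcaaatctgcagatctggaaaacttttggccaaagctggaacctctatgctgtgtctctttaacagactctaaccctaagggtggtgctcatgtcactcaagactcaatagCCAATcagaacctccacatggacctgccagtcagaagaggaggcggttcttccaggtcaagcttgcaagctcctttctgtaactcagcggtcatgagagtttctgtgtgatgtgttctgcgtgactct
Zfp942 (chr17:21962415-21962714, minus strand): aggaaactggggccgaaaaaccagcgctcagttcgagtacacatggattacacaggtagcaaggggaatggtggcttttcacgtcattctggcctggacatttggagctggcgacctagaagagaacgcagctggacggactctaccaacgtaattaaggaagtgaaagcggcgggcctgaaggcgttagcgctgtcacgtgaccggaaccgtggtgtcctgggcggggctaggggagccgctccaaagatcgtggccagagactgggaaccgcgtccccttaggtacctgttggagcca
Zfp944 (chr17:22361351-22361650, minus strand): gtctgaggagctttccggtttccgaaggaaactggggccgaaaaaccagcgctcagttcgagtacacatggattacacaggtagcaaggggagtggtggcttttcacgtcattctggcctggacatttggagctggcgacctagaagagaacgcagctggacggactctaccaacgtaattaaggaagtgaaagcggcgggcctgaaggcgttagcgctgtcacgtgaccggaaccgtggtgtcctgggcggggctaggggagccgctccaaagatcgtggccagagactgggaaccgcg
The 3 chromosome 2 promoters each held CCAAT and ATTGG in the same surroundings, and the chromosome 17 pair held neither. CCAAT in either orientation was found in 36 of 48 member promoters (75%) and in 10248 of 27025 promoters of all genes (37.9%). It was found in 9 of 9 promoters of the chromosome 2 group, 3 of 10 of the chromosome 17 group and 4 of 6 of the chromosome 4 group. Because promoters of a group are copies, these shares do not count independent sequences, and a match is a description of the letters and not of a bound factor.

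Every member was expressed, with the exception that *Zfp935* was listed next to 0 in gene trap replicate 2, and 45 had a mean of at least 100. Their median mean value of 348 was near that of all tested genes, 351. Divided by the length of annotated exons, the mean level ran from 4.83 per kb for *Zfp941* to 476 per kb for *Zfp949*, with a median of 105 per kb. On this scale *Zfp958* (374 per kb), *Zfp971* (326 per kb), *Zfp954* (282 per kb) and *Zfp970* (266 per kb) followed *Zfp949*. The range of *Zfp949* over the 10 tumors did not overlap that of *Zfp958*, whereas each of the next genes overlapped its neighbour in this order. Without division by length the highest mean values were those of *Zfp950* (2643), *Zfp949* (1957), *Zfp945* (1254), *Zfp933* (968) and *Zfp943* (885), of which *Zfp950* and *Zfp945* have the longest annotated exons. The lowest mean values among tested members were those of *Zfp977* (11.7), *Zfp987* (17.1), *Zfp941* (22.8), *Zfp935* (24.6) and *Zfp982* (29.1). *Zfp972* was left out of the tests, with values of 3.07 to 9.29 in wildtype and 6.52 to 15.2 in gene trap tumors.

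**Figure D1:**
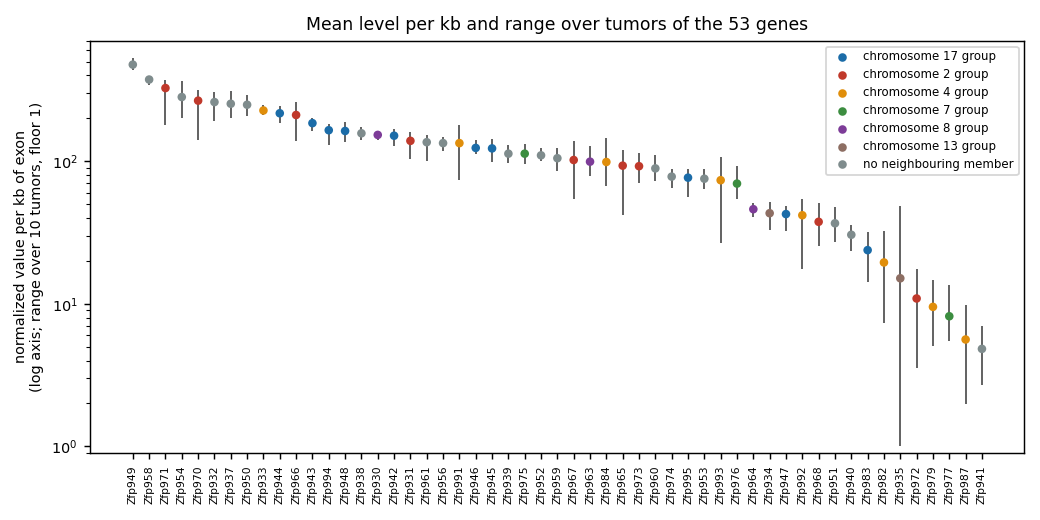
Mean normalized value per kb of annotated exon (vertical log axis) of the 53 genes in falling order, with a line from the lowest to the highest of the 10 tumors and colors for chromosomal groups. The mean ran from 4.83 for Zfp941 to 476 for Zfp949, and the widest relative range was that of Zfp935, whose lowest value lies under the floor of the axis at 1.

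No member passed limma's test of gene trap against wildtype tumors. None of the 52 had an adjusted p under 0.05, as was the case for all 21034 tested genes (0%), and the adjusted p of every member was 0.9997. At an unadjusted p under 0.05 no member was called in either direction, where 278 of all tested genes (1.32%) were higher and 201 (0.956%) were lower in gene trap tumors. The groups overlapped for every member, and did not overlap for 111 of all tested genes (0.528%). The smallest unadjusted p of a member was 0.0672, that of *Zfp944*. The log2 fold changes of members ran from -0.50 to 0.23. The lowest was that of *Zfp935*, which had a value of 1.7e-05 in gene trap replicate 2. Without that tumor its log2 fold change was 0.44. Those of the other members were small, from -0.26 (*Zfp951*) to 0.23 (*Zfp968*). The median log2 fold change of members was 0.03 with 33 of 52 (63.5%) above 0, beside a median of 0.00 and 51.4% above 0 for all tested genes. The other 291 numbered *Zfp* genes had the same median of 0.03 with 60.8% above 0, and 4 of them had an unadjusted p under 0.05.

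The 95% intervals show which changes the 5 tumors a group leave room for. For 38 of the 52 members the whole interval lay within 1.5 fold in either direction, and for 10 within 1.2 fold. For *Zfp935* and *Zfp982* it reached beyond 2 fold. The narrowest intervals were those of abundant members with little spread between tumors such as *Zfp933* and *Zfp930*. The median SD of the log2 value within groups was 0.20 for members, 0.15 for other numbered *Zfp* genes and 0.25 for all tested genes. It was 0.14 in the chromosome 17 group, 0.31 in the chromosome 2 group and 0.55 in the chromosome 4 group.

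**Figure D2:**
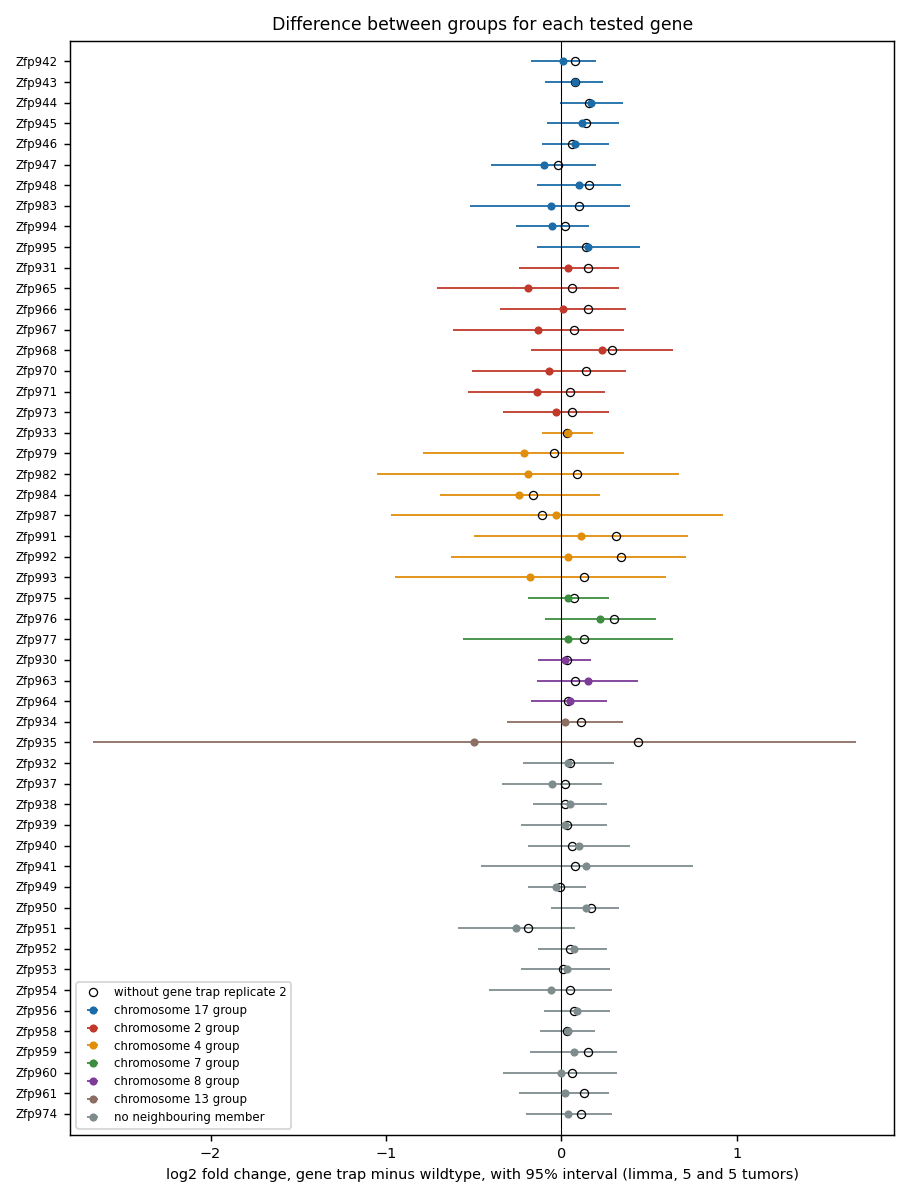
Log2 fold change of gene trap against wildtype tumors (horizontal axis) of the 52 tested genes with its 95% interval from limma, colored by chromosomal group, and the value without gene trap replicate 2 as an open circle. Every interval contains 0, and the open circles of the chromosome 2 group all lie above 0.

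In the chromosome 17 group 7 of 10 members were above 0, with a median log2 fold change of 0.08. *Zfp944* had values of 563, 659, 572, 535 and 515 in wildtype replicates 1 to 5 and of 679, 649, 607, 631 and 627 in gene trap replicates 1 to 5. Only wildtype replicate 2 reached into the range of the gene trap tumors. The difference was 0.17 on the log2 scale (standard error 0.08, 95% interval -0.01 to 0.35). Permutation of the 10 tumors (exact, two-sided) gave *Zfp944* an unadjusted p of 0.0397, the smallest among 52 members. *Zfp945*, with 18 zinc finger motifs in the longest protein among members, had values of 1346, 1280, 1175, 1004 and 1204 in wildtype and 1261, 1258, 1469, 1169 and 1379 in gene trap tumors. The groups overlapped widely (log2 fold change 0.12, standard error 0.09, limma p = 0.211, exact permutation p = 0.23). *Zfp947* was the member of this group furthest below 0, with 111 to 139 in wildtype and 93.1 to 132 in gene trap tumors (log2 fold change -0.10, standard error 0.14, limma p = 0.476, exact permutation p = 0.405). *Zfp942*, whose promoter is close to that of *Zfp944*, had a log2 fold change of 0.01 (95% interval -0.17 to 0.20), and the head-to-head neighbour *Zfp943* one of 0.08 (95% interval -0.09 to 0.24).

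In the chromosome 2 group 3 of 8 tested members were above 0, with a median log2 fold change of -0.05. *Zfp971* had values of 768, 746, 722, 588 and 797 in wildtype replicates 1 to 5 and of 796, 386, 698, 753 and 739 in gene trap replicates 1 to 5. Gene trap replicate 2 was far below the other 9 tumors, which lay between 588 and 797. The log2 fold change was -0.14 (standard error 0.18, limma p = 0.451, exact permutation p = 0.635) with that tumor and 0.05 without it. *Zfp965* showed the same arrangement, with 248, 208, 196, 203 and 276 in wildtype and 256, 97.8, 240, 225 and 214 in gene trap tumors. Its log2 fold change of -0.19 (standard error 0.24, limma p = 0.435, exact permutation p = 0.683) was 0.06 without gene trap replicate 2. All 50-base windows of *Zfp965* are shared with *Zfp973*, so its value is uncertain. *Zfp970* and *Zfp971* share 52.2% and 40% of their windows with other genes. *Zfp970*, with a promoter nearly identical to that of *Zfp966*, had 307 in gene trap replicate 2 and 494 to 689 in the other tumors. *Zfp968* differed from its neighbours, since its 105 in gene trap replicate 2 lay among the values of the other tumors, 77.3 to 155, and its log2 fold change was 0.23 (standard error 0.19, limma p = 0.233, exact permutation p = 0.23). Its windows are all shared with *Zfp966*. Without gene trap replicate 2 all 8 tested members of the group were above 0, with a median of 0.10, and none had an unadjusted p under 0.05 in limma.

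In the chromosome 4 group 3 of 8 members were above 0, with a median log2 fold change of -0.10. *Zfp991* had values of 526, 246, 468, 216 and 447 in wildtype replicates 1 to 5 and of 469, 221, 445, 445 and 420 in gene trap replicates 1 to 5. Wildtype replicates 2 and 4 and gene trap replicate 2 lay between 216 and 246, and the other 7 tumors lay between 420 and 526. *Zfp992* had its lowest values in the same 3 tumors, 141, 117 and 79.9, and between 202 and 249 in the others. *Zfp993* was also lowest in gene trap replicate 2 (34.1) and wildtype replicate 4 (57.5), followed by gene trap replicate 4 (65.1) and wildtype replicate 2 (82.6), with 98 to 136 in the other 6. The low tumors belonged to both groups, and the log2 fold changes of *Zfp991*, *Zfp992* and *Zfp993* were 0.11, 0.04 and -0.18, all with wide intervals. *Zfp993* shares 81.9% of its windows with *Zfp991*, and *Zfp992* shares 37.5%, so the 3 profiles are not independent measurements. *Zfp991* shares 70.7% with the pseudogene *Znf41-ps*, which had 263, 242 and 162 in the same 3 tumors and 201 to 393 in the others, without the separation seen for *Zfp991*.

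*Zfp979* had its lowest values in the same 3 tumors too, 35.0, 27.3 and 20.9, next to 35.4 to 60.1 in the others, without a gap between them (log2 fold change -0.21, standard error 0.26, limma p = 0.434, exact permutation p = 0.46). The remaining members of the chromosome 4 group ordered the tumors otherwise. *Zfp933*, which shares 1.1% of its windows, was even over the tumors, with 900 to 994 in wildtype and 917 to 1059 in gene trap tumors (log2 fold change 0.04, 95% interval -0.11 to 0.18). *Zfp984* had values of 297, 207, 361, 270 and 426 in wildtype and 255, 208, 316, 340 and 196 in gene trap tumors (log2 fold change -0.24, standard error 0.21, limma p = 0.280, exact permutation p = 0.357). Its lowest tumor was gene trap replicate 5, and the groups overlapped. It shares 54.6% of its windows with other genes. *Zfp982* and *Zfp987* were low and variable, with 11 to 48.4 and 5.98 to 29.7 over all tumors, and *Zfp987* shares 92.1% of its windows.

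**Figure D3:**
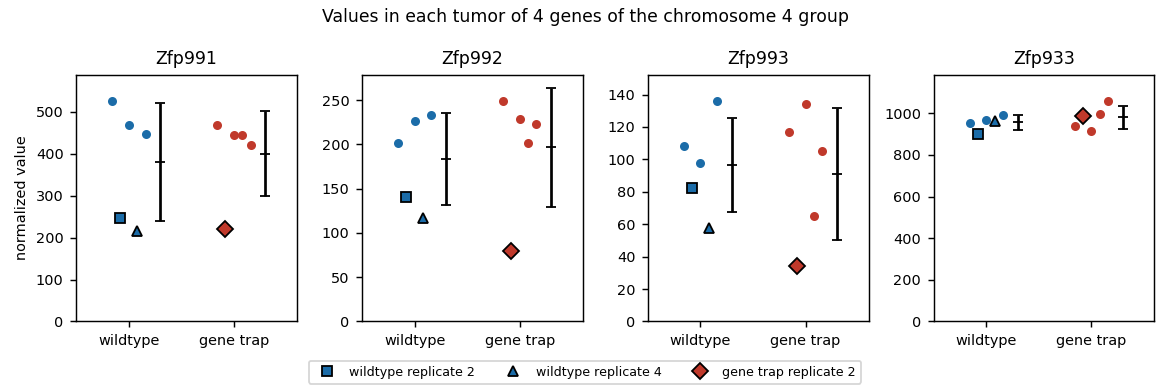
Normalized value (vertical axis, from 0) of Zfp991, Zfp992, Zfp993 and Zfp933 in each of the 5 wildtype (blue) and 5 gene trap (red) tumors, with the mean and SD of each group in black. Wildtype replicates 2 and 4 and gene trap replicate 2, drawn with outlined symbols, are the 3 lowest for Zfp991 and Zfp992 and had 900, 962 and 988 for Zfp933, where the other tumors lay between 917 and 1059.

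The genotypes also overlapped for members of the smaller groups. On chromosome 7, *Zfp976* had values of 285, 272, 312, 321 and 415 in wildtype and 421, 301, 339, 459 and 357 in gene trap tumors. Gene trap tumors were higher on average but wildtype replicate 5 lay above 3 of them (log2 fold change 0.22, standard error 0.15, limma p = 0.149, exact permutation p = 0.167). *Zfp975* had a log2 fold change of 0.04 (95% interval -0.19 to 0.27) and *Zfp977* one of 0.04 (95% interval -0.56 to 0.64). On chromosome 8, *Zfp930* was the least variable member, with 731 to 835 in wildtype and 766 to 836 in gene trap tumors (log2 fold change 0.02, 95% interval -0.13 to 0.17). *Zfp963* had 197, 224, 257, 180 and 223 in wildtype and 241, 292, 205, 238 and 224 in gene trap tumors, which overlapped (log2 fold change 0.15, standard error 0.13, limma p = 0.278, exact permutation p = 0.262). *Zfp963* and *Zfp975* share 40.4% and 40.7% of their windows with other genes. *Zfp964* had a log2 fold change of 0.05 (95% interval -0.17 to 0.26). On chromosome 13, *Zfp935* was the most variable member, with 17.3, 25.7, 2.84, 26.8 and 42.4 in wildtype and 11.7, 1.7e-05, 25.6, 79.2 and 14.1 in gene trap tumors. All of its windows are shared with another gene, 99.2% of them with *Gm49359*, so this spread cannot be assigned to *Zfp935* itself.

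Among the 18 members with no neighbouring member 13 were above 0, with a median log2 fold change of 0.04. *Zfp950* had values of 2775, 2420, 2448, 2216 and 2727 in wildtype and 3025, 2520, 2609, 2576 and 3112 in gene trap tumors. The gene trap mean of 2769 ± 277 (SD, n = 5) exceeded the wildtype mean of 2517 ± 232 (SD, n = 5) by about 1 SD, and the groups overlapped (log2 fold change 0.14, standard error 0.09, limma p = 0.147, exact permutation p = 0.167). *Zfp951* had the smallest p of the members below 0, with 226, 182, 143, 202 and 194 in wildtype and 180, 129, 176, 136 and 169 in gene trap tumors. Wildtype replicate 3 was as low as the lower gene trap tumors (log2 fold change -0.26, standard error 0.15, 95% interval -0.59 to 0.08, limma p = 0.119, exact permutation p = 0.119). *Zfp949*, the highest per kb, had a log2 fold change of -0.03 (95% interval -0.19 to 0.14).

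*Zfp932* and *Zfp961* were examined because their proteins are known to bind transposable elements. *Zfp932*, a repressor of endogenous retroviruses that is paired with its close copy *Gm15446*, had values of 939, 628, 942, 797 and 900 in wildtype and 819, 838, 768, 1002 and 867 in gene trap tumors. The lowest tumor was wildtype replicate 2 and the highest was gene trap replicate 4 (log2 fold change 0.04, 95% interval -0.22 to 0.30). *Gm15446*, which shares 42.6% of the windows of *Zfp932*, had 326 to 437 in wildtype and 304 to 411 in gene trap tumors (log2 fold change -0.03). *Zfp961* had 541 to 613 in wildtype tumors and 586 to 662 in gene trap tumors other than replicate 2, which had 435. Its log2 fold change was 0.02 (95% interval -0.24 to 0.27), and 0.13 without that tumor.

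Nor did any partner through which KRAB zinc finger proteins act pass the test. Of 28 tested genes of the list, 20 (71.4%) were above 0 with a median log2 fold change of 0.04, beside 51.4% and 0.00 for all tested genes. None had an adjusted p under 0.05 and none an unadjusted p under 0.05, where 479 of 21034 genes (2.28%) had the latter. *Trim28*, the corepressor bound by the KRAB domain, had 5893 to 7313 in wildtype and 4228 to 7609 in gene trap tumors (log2 fold change -0.10, standard error 0.14, limma p = 0.469, exact permutation p = 0.643), with the lowest value in gene trap replicate 2. *Setdb1* had 2272 to 2805 in wildtype and 2440 to 2991 in gene trap tumors (log2 fold change 0.10, standard error 0.08, limma p = 0.238, exact permutation p = 0.238). *Atf7ip*, which stabilizes SETDB1, and *Morc3*, which acts in silencing of endogenous retroviruses, had log2 fold changes of 0.03 and -0.03. Better known KRAB zinc finger genes outside the numbered range were also examined. *Zfp809*, a repressor of murine leukemia virus, had a log2 fold change of -0.02 and *Zfp568*, a repressor of a placental transcript of *Igf2*, one of 0.00. *Zfp445* and *Zfp57*, which protect imprinted methylation, had log2 fold changes of 0.03 and -0.30, the latter at 14.5 to 36.8 over all tumors (limma p = 0.259, exact permutation p = 0.254).

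The members were also described in individual tumors. For each tumor the median over members of its log2 value minus the mean of the other 9 was taken. It was 0.08, -0.01, -0.02, -0.15 and 0.11 in wildtype replicates 1 to 5 and 0.14, -0.27, 0.02, 0.10 and 0.09 in gene trap replicates 1 to 5. The same median over all tested genes lay within 0.01 of 0 in every tumor, where the normalization between tumors holds it. Over other numbered *Zfp* genes it was -0.01 in gene trap replicate 2 and -0.05 to 0.07 in the other tumors. Gene trap replicate 2 held the lowest value of 22 of the 52 members (42.3%), where it held the lowest value of 21.8% of all tested genes. Wildtype replicate 4 held the lowest value of another 14 members (26.9%), against 9.3% of all tested genes. These 2 tumors also had the highest sums of luminal markers (108491 and 102309) and the lowest sums of endothelial markers (1710 and 1915). Other values went otherwise. Gene trap replicate 5, with a member median of 0.09, had a luminal sum of 102054, close to that of wildtype replicate 4. Fibroblast markers were lowest in wildtype replicate 4 (17408) but not in gene trap replicate 2 (31053). The part of cell composition in the members' values was not tested. Without gene trap replicate 2 the median log2 fold change of members was 0.07 and 88.5% of them were above 0, beside 50.1% of all tested genes, 64.6% of other numbered *Zfp* genes and 72.1% of the 111 of these with the KRAB A box pattern, and no member had a p under 0.05. Without wildtype replicate 4 the median was -0.01 with 46.2% above 0. Without both tumors, a setting chosen after the values were seen, it was 0.04 with 71.2% above 0.

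The low values of gene trap replicate 2 were uneven over the chromosomal groups. Its median deviation was -0.78 in the chromosome 2 group, 0.58 times the level of the other tumors, and -0.87 in the chromosome 4 group, 0.55 times that level. In the chromosome 7 group it was -0.21, in the chromosome 17 group -0.08, among members with no neighbour -0.07 and in the chromosome 8 group 0.06. On chromosome 13 *Zfp934* had a deviation of -0.405 and *Zfp935*, with its value next to 0, one of -4.418. The other tumors lay between -0.22 and 0.28 in the chromosome 2 group and between -0.46 and 0.54 in the chromosome 4 group. All 8 tested members of the chromosome 2 group were below the mean of the other tumors in gene trap replicate 2, beside 10254 of 21034 tested genes. Of the 8 members 7 had their lowest value there, beside 21.8% of all tested genes. Genes of other names between the members were also low in this tumor on chromosomes 2, 4, 17 and 8. The 25 tested genes between members on chromosome 2 had a median deviation of -0.60 in this tumor, and the 9 on chromosome 4 one of -0.59. On chromosomes 17 and 8 the genes between were lower than the members, with -0.32 for 8 genes and -0.25 for 6 genes. Of these, 7 of 8 and 6 of 6 were below the mean of the other tumors.

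**Figure D4:**
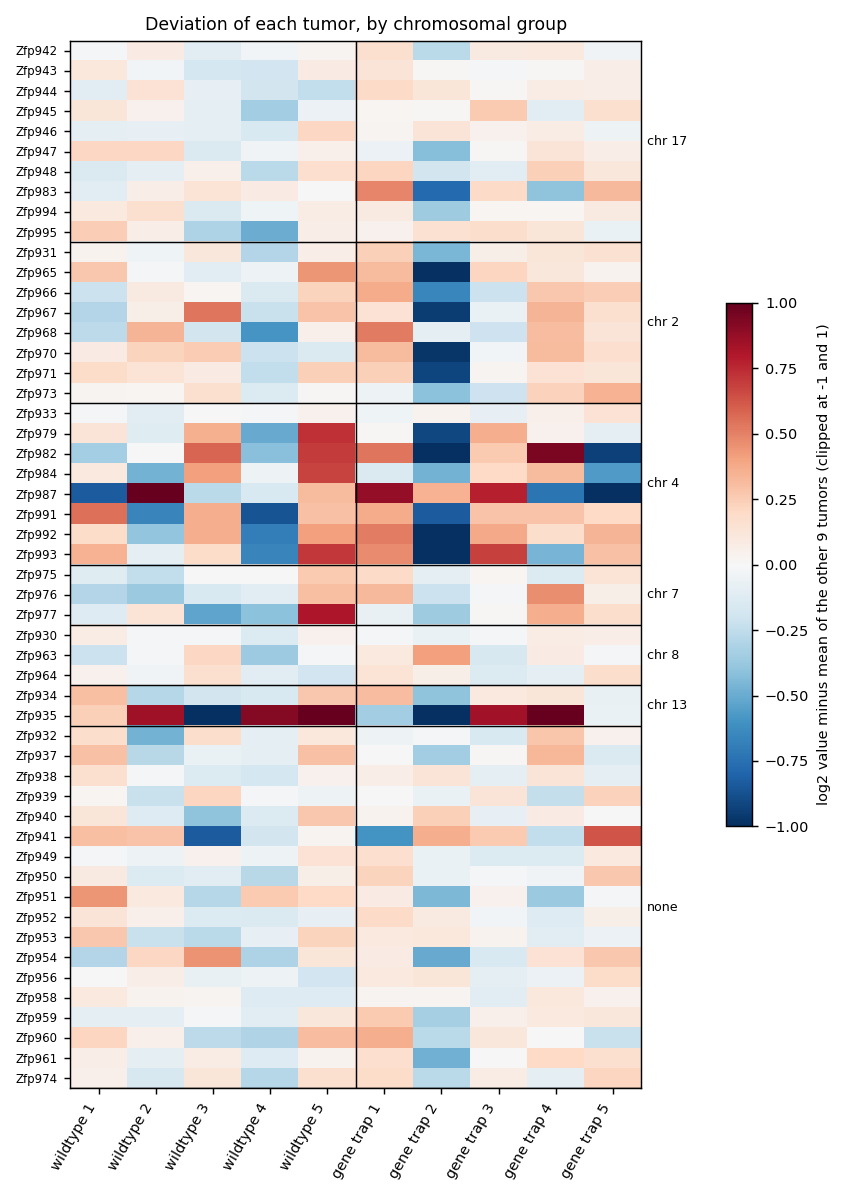
Log2 value of each of the 52 tested genes (rows) in each tumor (columns) minus its mean in the other 9 tumors, blue for lower and red for higher, clipped at -1 and 1, with lines between chromosomal groups and between wildtype and gene trap tumors. Gene trap replicate 2 is blue for all members of the chromosome 2 group, faintly for Zfp968, and for 6 of 8 of the chromosome 4 group, while the chromosome 17 group is mixed, with Zfp983 and Zfp947 blue, and Zfp963 of the chromosome 8 group is red.

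The low values of that tumor also went with the share of sequence held in common with other genes. In gene trap replicate 2 the median deviation was 0.02 for the 18 members that share under 5% of their windows, -0.34 for the 16 that share 5% to under 40%, and -0.56 for the 18 that share at least 40%. In the other 9 tumors the last of these medians lay between -0.18 and 0.32. Across the 52 members Spearman's rho of the shared percentage with the deviation was -0.47 in gene trap replicate 2, and between -0.13 and 0.45 in the other tumors, with the highest in wildtype replicate 5. The points share libraries, and members of a group share sequence, so these are descriptions. There were exceptions on both sides, since *Zfp961*, with 0.0% shared, was low in gene trap replicate 2 and *Zfp987*, with 92.1% shared, was not. Outside the chromosome 2 and 4 groups, deviations of members with at least 40% shared ran from 0.409 (*Zfp963*) to -0.405 (*Zfp934*), with -4.418 for *Zfp935*. Within these 2 groups, those of members with under 40% shared ran from 0.035 (*Zfp933*) to -1.33 (*Zfp982*). Chromosomal group and shared sequence overlap among the members, and their separate parts in the values of this tumor were not tested.

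**Figure D5:**
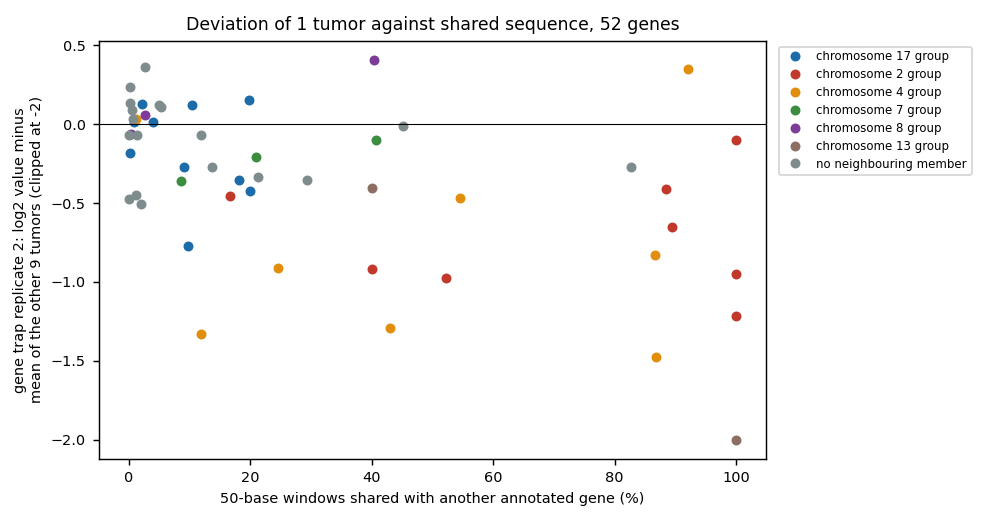
Deviation of gene trap replicate 2 from the other 9 tumors on the log2 scale (vertical axis, clipped at -2) against the percentage of 50-base windows a gene shares with other annotated genes (horizontal axis), with 1 point for each of the 52 tested genes colored by chromosomal group. Genes with under 5% shared had a median of 0.02 and genes with at least 40% shared one of -0.56.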

How the data were processed

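Total RNA of primary mammary tumors was sequenced with a stranded library. The labels describe 8 wildtype and 8 gene trap tumors. Of 16 columns 10 matched a label (5 per group), and the other 6 were not used. The authors deposited estimated counts per gene already normalized by median ratio, a signal whose depth is unknown. Their methods name that normalization for human data, and here the columns' median ratios lay between 0.999 and 1.008, and nearly all values were fractions. Per the submitters' processing notes Partek, STAR (2.7.8a), DESeq2 and mm39 were used, and the counter and annotation are not given in the sources used here. Here, log2(value + 1) of genes averaging at least 10 was fitted with limma (3.58.1, R 4.3.3) with group as the only factor, variance trend and Benjamini-Hochberg adjustment over 21034 genes. Fold changes on this scale understate those of low genes. The calculation was tested on simulated data. Named genes were also compared by exact two-sided permutation over 252 arrangements, where the smallest p is 0.00794. Nothing says whether tumors shared a litter, and p-values measure the spread between these tumors.

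The reference annotation, GENCODE M21 on GRCm38, was of another build than mm39, and was used for exon length, order of genes, translated coding sequences and shared windows. No protein table was used. C2H2 motifs were C, 2 residues, C, 12 residues, H, 3 to 5 residues, H. Members and lists were chosen with earlier results of these data known. Genes named were *Resf1*, the 6 tested members with the smallest p in each direction, the 5 highest and the 5 lowest means, members of groups of 3 or more, members with a value far from their group, *Zfp932*, *Zfp961*, the untested member, and fixed partners and known KRAB genes. Others were chosen after their values were seen. Partners were *Trim28*, *Setdb1*, HP1, NuRD, DNA methylation, SUMO and HUSH genes, 28 of 29 with a row. Symbols were found for 97.0% of IDs. Alternatives were other filters, pseudocounts, normalizations, a replicate block, each tumor left out, no trend and weights per tumor. Figures used matplotlib (3.10.9).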

Additional observations from a re-analysis of the deposited data

Results flagged for a closer look

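In 7 of 108 groups of 5 tumors examined, a value of a member lay far from the other 4 of its group by Dixon's criterion. Chance alone meets this criterion in about 1 group in 20, or 5.4 of 108 groups, so 7 is near that number. The share over all genes was not counted. Of the 7 values 5 were in gene trap replicate 2, each lower than the other gene trap tumors. This tumor held the lowest value of 21.8% of all tested genes. *Zfp965* had 97.8 there, against 214 to 256, and *Zfp971* had 386, against 698 to 796. *Zfp991* had 221, against 420 to 469, and *Zfp992* had 79.9, against 202 to 249. *Zfp994*, on chromosome 17, had 641, against 812 to 848. Among wildtype tumors, *Zfp946* had 493 in replicate 5, against 393 to 412, and *Zfp972*, the untested member, had 3.07 in replicate 2, against 8.29 to 9.29.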

How the results depend on the processing

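No member and no gene of the table had an adjusted p under 0.05 in limma under any of the alternatives run. The count of members at an unadjusted p under 0.05 was 0 under every alternative except when wildtype replicate 2, 3 or 5 was left out, which gave 1 each (range 0 to 1), *Zfp944*, *Zfp951* and *Zfp976*, with p of 0.0165, 0.0357 and 0.0382. The count of members whose groups do not overlap was likewise 0 to 1, and was not set beside all genes in these settings. That of partners at an unadjusted p under 0.05 was also 0 to 1. The partners were *Cbx1* without gene trap replicate 3 and *Uhrf1* without gene trap replicate 5, where 614 and 563 of all tested genes had such a p. The percentage of members above 0 ranged from 46.2 (without wildtype replicate 4) to 88.5 (without gene trap replicate 2) and was 84.6 with weights per tumor, and the median log2 fold change from -0.01 to 0.08. The log2 fold change of *Zfp965* turned to 0.06 without gene trap replicate 2, 0.03 with weights per tumor and 0.02 without that tumor and wildtype replicate 4. Without each tumor it ranged from -0.29 to 0.06. That of *Zfp971* turned to 0.05 and 0.02 in the first and second of these settings and ranged from -0.21 to 0.05 without each tumor. The other 10 members with the smallest p kept their sign under all alternatives that could be fitted, and *Zfp979* had no value with a mean of at least 50. *Resf1* stayed between -0.28 and -0.14, but its unadjusted p was not under 0.05 in 9 of 20 alternatives, which were those without wildtype replicate 1, 2 or 4, without gene trap replicate 2, 4 or 5, without wildtype replicate 4 and gene trap replicate 2, with no variance trend and with weights per tumor. The replicate block left 0 members at p under 0.05 and a median of 0.03. Replicate numbers name different animals, and same-numbered tumors did not deviate together (correlations -0.156 to 0.149, and 1 of 5 correlated best with its own number), so the tumors were not treated as paired. Sequencing depth is unknown, and low members such as *Zfp977* and *Zfp987* are limited by it to an extent that could not be measured.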
